A study of Mus musculus with 46 samples.

Results

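The 10 nuclear genes described here encode factors that act in the copying or transcription of mitochondrial DNA, or on its RNA: Tfam, Tfb2m, Polrmt, Tefm, Tfb1m, Polg, Polg2, Ssbp1, Mgme1 and Lrpprc. They were taken by symbol from the 55487 genes listed for each library, by a rule that uses names and no measured values, and their RNA was followed through every islet and liver group. The question put to the data was whether the partners of Tfam changed when Tfam, or another gene of mitochondrial upkeep, was targeted.

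Mitochondrial DNA is a small circle present in many copies per cell and is packed by TFAM, a DNA-binding protein that also bends the promoters so that transcription can start. TFB2M and the RNA polymerase POLRMT then open and read the promoter, and a short transcript from the same polymerase can prime replication, so that copying and reading of this genome share their first steps. The polymerase gamma complex, the single-strand binding protein SSBP1 and the nuclease MGME1 carry replication on, and LRPPRC keeps the finished messenger RNAs from decay.

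The libraries came from 3 experiments. In the first, islets carried the label Tfam control (5 females, 3 males) or Tfam KO (4 females, 2 males). In the second, islets carried the label Clec16a control or Clec16a KO, with 4 libraries of each on the diet given as RFD, and with 6 and 5 on the one given as HFD. The third held livers: 6 labelled control, 4 labelled Mfn DKO and 3 labelled Tfam KO. All were from mice, and the labels call the libraries of a group biological replicates, but give neither strain, age, sex of the livers nor the promoter that drove deletion, and do not write out RFD or HFD; the liver descriptions carry the letters AAV. Islets had been in culture overnight, and livers had been flash frozen.

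The total count per library was 55223041 to 83342809 for the first experiment, 16235173 to 55810879 for the second and 41961114 to 56894510 for the third. The libraries labelled Mfn DKO were low in Mfn1 (80.8 ± 7.58 CPM in control and 20.2 ± 4.30 CPM in Mfn DKO livers, SD, n = 6 and 4) and in Mfn2. Clec16a RNA, counted over the whole gene, showed no drop under the label Clec16a KO (24.3 ± 3.71 and 26.5 ± 2.74 CPM on RFD, SD, n = 4 and 4), so its label could not be checked in the RNA. Beta cell markers dominated all islet groups (105143 to 346273 CPM summed over 8 genes, against 93.6 to 498 CPM in livers), and hepatocyte markers the livers. Clec16a KO HFD replicate 4 stood apart from the other 4 libraries of its group, with endothelial markers at 300 CPM against 491 to 558 CPM. Liver Tfam KO replicate 2 also stood apart, with hepatocyte markers summing to 21531 CPM against 55966 and 91364 CPM in the other two.

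The 250 bases before the RefSeq start are shown for Polg2, which was lower in both targeted liver groups, and for Lrpprc, which was higher in Tfam KO islets. The RefSeq start lies 0 and 3 bases from the 5′ end of the GENCODE M21 gene for these 2. They are RefSeq sequences of GRCm38.p6, written 5′ to 3′ on the strand of the gene, and capitals mark CCGGAAG or its reverse complement, the core bound by ETS factors such as GABP. Both windows lie on the minus strand, that of Polg2 at chr11:106779538-106779787 and that of Lrpprc at chr17:84790787-84791036.
Polg2: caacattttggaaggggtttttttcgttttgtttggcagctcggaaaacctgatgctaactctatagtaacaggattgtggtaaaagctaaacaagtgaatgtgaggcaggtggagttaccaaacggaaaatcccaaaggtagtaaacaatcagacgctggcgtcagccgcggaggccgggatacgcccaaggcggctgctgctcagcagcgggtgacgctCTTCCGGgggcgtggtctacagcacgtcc
Lrpprc: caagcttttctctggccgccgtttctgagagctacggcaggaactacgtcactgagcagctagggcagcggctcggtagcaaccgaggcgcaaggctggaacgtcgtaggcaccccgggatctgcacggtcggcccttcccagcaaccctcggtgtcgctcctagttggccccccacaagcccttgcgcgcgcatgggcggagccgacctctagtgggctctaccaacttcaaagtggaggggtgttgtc
The capitals begin 29 bases before the start of Polg2, and Lrpprc holds no match. For Tfam and Mgme1 the RefSeq start lies 236 and 241 bases inside the GENCODE gene, so that most of the window is transcribed in GENCODE, and it is not shown. The genes themselves span chr10:71225464-71238280 (Tfam, ENSMUSG00000003923), chr11:106768253-106779537 (Polg2, ENSMUSG00000020718), chr2:144270663-144281227 (Mgme1, ENSMUSG00000027424) and chr17:84705247-84790789 (Lrpprc, ENSMUSG00000024120) in GRCm38.

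Each of 4 motifs was searched on both strands in windows reaching from 250 bases before to 50 bases after the RefSeq start, and all 10 members were found in the promoter table. The ETS core CCGGAAG occurred in 6 of the 10 windows (Tfam, Polrmt, Tefm, Polg, Polg2 and Ssbp1) and in 8.86% of all 32851 windows. The NRF1 palindrome, GCGCA and GCGC set apart by any 1 base, occurred in the Polrmt window only, and in 4.60% of all windows. The E-box CACGTG bound by MYC, in 7.15% of all windows, and the composite TGATGNAA bound by ATF4 with CHOP, in 3.97%, occurred in none of the 10. The windows of Tfam and Mgme1 are counted here although their starts lie 236 and 241 bases inside the GENCODE gene. Those of Ssbp1 and Polg lie 116 and 89 bases inside, so part of these windows is transcribed in GENCODE. The share over all windows comes from every window in the promoter table, not from ones matched to the members, and was not tested. A match is a stretch of letters and not a measured binding site. 

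Levels of different genes were set side by side in the deposited TPM, which divides by gene length. Lrpprc, the messenger RNA stabiliser, was highest in Tfam control islets at 25 ± 3.12 TPM (SD, n = 8), followed by Tfam at 19 ± 1.08 TPM. The elongation factor Tefm (12.4 TPM), the polymerase Polrmt (11.1 TPM), the single-strand binding protein Ssbp1 (9.28 TPM), the initiation factor Tfb2m (8.29 TPM) and the DNA polymerase Polg (7.32 TPM) came next. The nuclease Mgme1 (5.26 TPM), the ribosomal RNA methylase Tfb1m (5.19 TPM) and the accessory polymerase subunit Polg2 (2.24 TPM) were lowest. The ranges of neighbours in this order overlapped over the 8 libraries, apart from the steps from Tfam to Tefm and from Tfb1m to Polg2.

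Control livers began with the same 3 genes, Lrpprc at 41.9 ± 3.84 TPM (SD, n = 6), Tfam at 28.4 ± 1.88 TPM and Tefm at 16.6 ± 1.19 TPM, and their ranges did not overlap. Polg2 stood at 6.02 ± 1.13 TPM there, next to last, above Tfb1m at 4.78 ± 0.70 TPM. These places depended on the length assumed for a gene, since the deposited TPM counts all annotated exons. With the longest protein-coding transcript as the length, an alternative chosen after seeing the data, Polg2 moved from place 9 to place 4 in livers and Mgme1 from place 7 to place 10, while Lrpprc and Tfam stayed first and second in Tfam control islets and in control livers; in Clec16a control islets on RFD Tfam moved from place 2 to place 4.

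**Figure D1:**
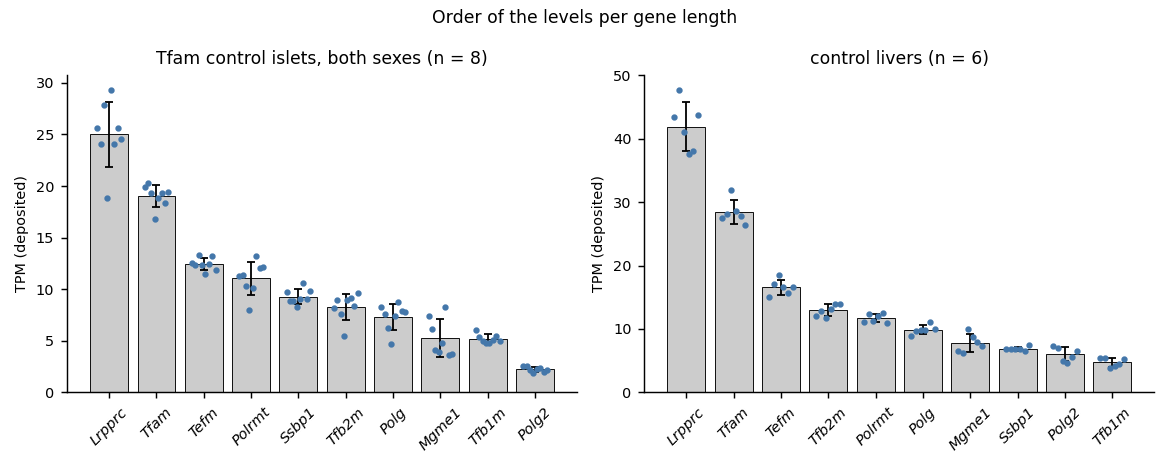
Deposited TPM (vertical axis) of the 10 genes in Tfam control islets of both sexes and in control livers; bars are means, error bars 1 SD and points single libraries. Lrpprc and Tfam lead both tissues, and Polg2 is lowest in islets at 2.24 TPM and next to last in livers at 6.02 TPM.

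Groups were compared in CPM, counts scaled to a common library total by the TMM method within each experiment, and tested with edgeR's quasi-likelihood test. A gene was called at a Benjamini-Hochberg adjusted p of 0.05 or less over all genes tested, and all 10 members passed the filter on low counts in every fit.

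**Figure D2:**
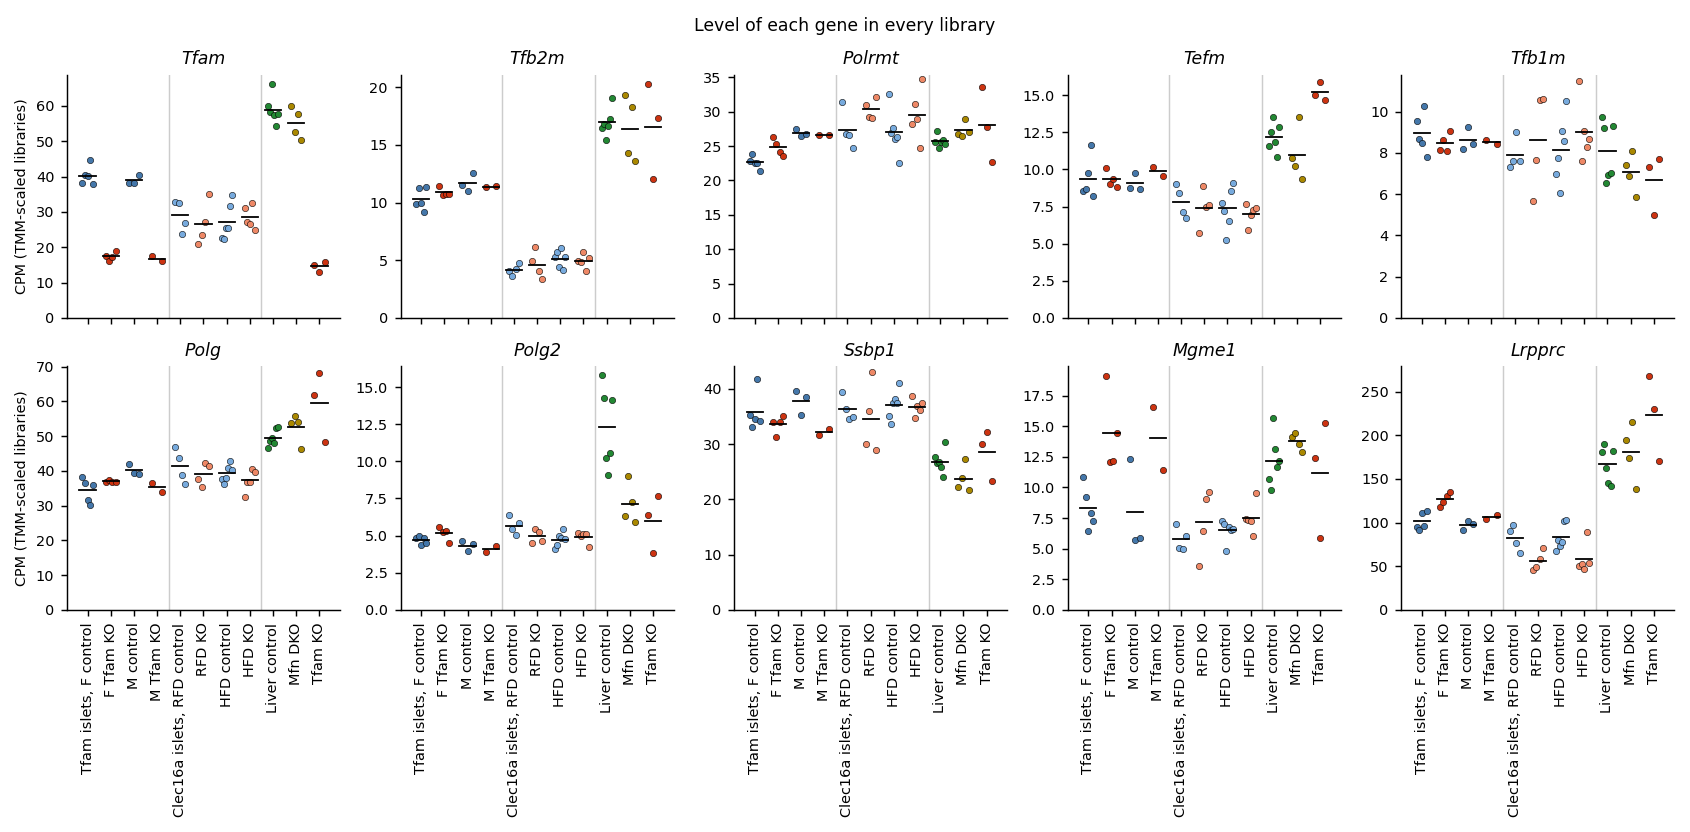
CPM on TMM-scaled library sizes (vertical axis) of each gene in every library of the 11 groups (horizontal axis); each point is 1 library and each line a group mean, and grey lines divide the 3 experiments, which were scaled separately. Tfam drops in the islets and livers labelled Tfam KO, Polg2 is lower in both targeted liver groups, and Mgme1 is higher in Tfam KO islets.

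Tfam RNA was lower in every library labelled Tfam KO than in every control. In female islets it lay at 38.2, 40.3, 40.1, 44.7 and 37.8 CPM in controls and at 17.7, 16, 17.2 and 18.9 CPM in KO. Male islets had 38.3, 38.2 and 40.5 CPM in controls and 17.6 and 16 CPM in KO. The groups did not overlap in either sex, as was so in this direction for 5.12% of genes in females and 21.1% in males. Over both sexes Tfam fell by 1.21 ± 0.06 on the log2 scale (SE, adjusted p = 3.8e-10), which left 43.3% of the control level (95% interval 39.8% to 47.0%).

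Livers labelled Tfam KO kept less Tfam RNA than the islets did. Control livers held 59.8, 58.3, 66.2, 57.4, 54.2 and 57.6 CPM, and Tfam KO livers 15, 13.1 and 15.9 CPM. This was a fall by 2.0 ± 0.11 on the log2 scale (SE, adjusted p = 1.4e-06), to 24.9% of control. In a joint fit the fall was larger in livers than in islets by 0.81 ± 0.11 (log2, SE, adjusted p = 0.00013). In bulk tissue, fewer cells that had kept the gene and less RNA per cell cannot be told apart, and counts over a whole gene also include exons outside any deleted part. In the other targeted groups Tfam was not called, at -0.09 ± 0.09 in Mfn DKO livers and at -0.12 ± 0.16 and 0.07 ± 0.14 in Clec16a KO islets on RFD and HFD (log2, SE).

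In Tfam KO islets, 2 of the other 9 genes rose, the replication nuclease Mgme1 and the messenger RNA stabiliser Lrpprc, and the rest were not called. With Tfam, 3 of 10 members were called, against 20.9% of the 19752 genes tested, of which 11.6% were called higher. The median log2 change over the 10 was 0.04, against -0.01 over all genes tested.

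Mgme1, which trims the single-stranded flaps left at DNA ends during replication, showed the larger rise. Female controls lay at 10.8, 9.26, 6.43, 7.88 and 7.24 CPM, and female KO islets at 19.1, 12.1, 12.2 and 14.4 CPM. Male controls lay at 12.3, 5.67 and 5.88 CPM, and male KO islets at 16.6 and 11.4 CPM. The female groups did not overlap, as for 7.88% of genes in the upward direction, while 1 male control lay above 1 male KO library. Over both sexes Mgme1 rose by 0.80 ± 0.18 (log2, SE, adjusted p = 0.0044), or 1.74-fold with a 95% interval of 1.34 to 2.27. The rise was 0.80 ± 0.23 in females (adjusted p = 0.038), and the value in males, 0.81 ± 0.31, was not called (adjusted p = 0.12). Leaving out single libraries kept the call over both sexes in 14 of 14 fits, at 0.70 to 0.95. The call in females was lost in 7 of 14, with an adjusted p of up to 0.13 without female KO replicate 1.

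Exons of Mgme1 share 206 of their 3348 bases with Snx5 on the opposite strand, and whether counting used strand is not given in the sources used here. Snx5 rose by 0.31 ± 0.06 in Tfam KO islets (log2, SE, adjusted p = 0.0022) from 122 ± 8.07 CPM in female controls (SD, n = 5). In Tfam KO livers Snx5 rose by 0.76 ± 0.15 (adjusted p = 0.0042), where Mgme1 stood at -0.13 ± 0.23 (adjusted p = 0.72). The part of shared reads in the Mgme1 value was not tested.

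Lrpprc binds mitochondrial messenger RNAs with its partner SLIRP and protects them from decay. Female controls held 94.5, 91.7, 111, 96.1 and 113 CPM, and female KO islets 118, 123, 131 and 135 CPM. Male controls held 91.1, 102 and 97.9 CPM, and male KO islets 104 and 108 CPM. The groups did not overlap within either sex (24.5% of genes were apart in this direction in males), but male KO islets lay below the highest female controls. Lrpprc rose by 0.26 ± 0.06 over both sexes (log2, SE, adjusted p = 0.0097) and by 0.32 ± 0.08 in females (adjusted p = 0.014). In males it was not called, at 0.13 ± 0.11 (adjusted p = 0.49), and the call in females was lost without female KO replicate 3 or 4 (adjusted p = 0.052 and 0.059).

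The 7 members left uncalled in Tfam KO islets spanned narrow intervals. Among the transcription factors, Polrmt stood at 0.08 ± 0.05 (log2, SE), the initiation factor Tfb2m at 0.04 ± 0.07 and the elongation factor Tefm at 0.04 ± 0.09. Tfb1m, which methylates the small ribosomal RNA, stood at -0.06 ± 0.08. Polg, the catalytic subunit of the replicative polymerase, stood at -0.00 ± 0.07 with a 95% interval of -0.14 to 0.14, and Polg2, its accessory subunit, at 0.06 ± 0.09. Ssbp1 was lowest at -0.14 ± 0.06 (adjusted p = 0.12). For these 7 the intervals, on TMM-scaled counts, exclude a rise or fall of more than 0.27 on the log2 scale. This bounds them under that scaling and does not show that they were equal. In the deposited TPM, which is scaled otherwise, all 7 had higher means in Tfam KO than in control islets. Tefm stood at 12.4 ± 0.61 TPM in controls and 16.9 ± 1.11 TPM in KO (SD, n = 8 and 6). Tfb1m stood at 5.19 ± 0.45 and 6.55 ± 0.21 TPM. The TPM were not tested.

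Females had 3 of 10 members called, against 10.8% of genes tested, and males 1 of 10, Tfam, against 8.93%. Between the sexes no difference of the effect was called for any member: edgeR called 0 of 10, with 0% of all genes called, and DESeq2 also called 0. At an unadjusted p under 0.05 there was 1 member, against 1230 of the 19752 genes tested. That member was Polg, at 36.7, 37.5, 36.9 and 36.7 CPM in female KO islets against 30.3 to 38.3 CPM in controls, and at 36.6 and 34.0 CPM in male KO islets against 39.0 to 42.1 CPM in controls. The difference of its effects, males minus females, was -0.28 ± 0.12 (log2, SE, adjusted p = 0.76). For Mgme1 this difference ran from -0.28 to 0.48 when single libraries were left out. With 2 male KO and 3 male control libraries, the lack of a call does not show that the effects were equal.

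Tfam KO livers showed another pattern, in which Polg2 fell and Mgme1 did not change detectably. Members called numbered 2 of 10, Tfam and Polg2, both lower, against 29.3% of the 17024 genes tested. Polg2, the accessory subunit that lets polymerase gamma copy long stretches without falling off, lay at 15.8, 14.3, 10.2, 9.08, 10.6 and 14.1 CPM in controls. It lay at 6.37, 3.82 and 7.67 CPM in Tfam KO livers. No KO liver reached the lowest control, which held for 10.2% of genes in this direction, and the fall was by 1.05 ± 0.25 (log2, SE, adjusted p = 0.0082). The call was kept in 13 of 13 fits without 1 library, at -1.30 to -0.81. Of these fits 4 left out an Mfn DKO liver, which is not in this comparison. With the replicate number as a block the change in Polg2 was -1.16 and no longer called (adjusted p = 0.060).

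Mfn DKO livers, in which the mitofusin genes and not Tfam were targeted, also had lower Polg2. Their values were 6.35, 8.99, 7.26 and 5.94 CPM, below every control liver, as for 10.3% of genes. The fall was by 0.79 ± 0.22 (log2, SE, adjusted p = 0.039), and it was the only call of 10 members in this comparison, against 9.87% of genes tested. It was lost in 6 of 13 fits without 1 library (adjusted p up to 0.12), with no filter on low counts (0.051) and with the replicate block (0.17). Both comparisons share the 6 control livers. Set directly against Mfn DKO livers, Tfam KO livers had Polg2 at -0.26 ± 0.25 (adjusted p = 0.57), with a 95% interval of -0.81 to 0.29; 1 of 10 members, Tfam, was called there, against 0.294% of genes tested.

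The fall of Polg2 in livers was tested against that in islets. Islets had Polg2 at 4.57 ± 0.34 CPM in controls and 4.80 ± 0.66 CPM in Tfam KO (SD, n = 8 and 6), and the effect in livers was lower by 1.10 ± 0.24 (log2, SE, adjusted p = 0.0046). Tfam and Polg2 were the 2 of 10 members called in this difference of effects, against 18.5% of the 21096 genes tested. Mgme1 differed by -0.95 ± 0.35, with an adjusted p of 0.062 that passed the threshold with DESeq2 (0.035) and with a stricter filter on counts (0.045). Polg2 shares 132 of its 4356 exon bases with Milr1 on the opposite strand, which was not called in Tfam KO livers (0.04 ± 0.40, adjusted p = 0.95).

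Several other members lay higher in Tfam KO livers without passing the test. Tefm, which keeps the mitochondrial RNA polymerase on its template, lay at 15, 15.9 and 14.6 CPM against 10.8 to 13.5 CPM in controls. These groups did not overlap, which held for 10.7% of genes in the upward direction, and the change was 0.32 ± 0.12 (log2, SE, adjusted p = 0.063). Polg lay at 61.9, 68.2 and 48.3 CPM against 46.6 to 52.6 CPM (0.26 ± 0.11, adjusted p = 0.086). Lrpprc lay at 268, 230 and 170 CPM against 142 to 190 CPM (0.41 ± 0.17, adjusted p = 0.083).

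In both Polg and Lrpprc it was Tfam KO replicate 3 that lay within the controls. Each library was left out in turn, and the fit without this one called 41.8% of all genes tested, where the fit with all libraries called 29.3%. It called both genes, Polg at 0.37 ± 0.10 (adjusted p = 0.0088) and Lrpprc at 0.55 ± 0.17 (adjusted p = 0.022); since that library was named for its values in these 2 genes, this is no separate support for them. Polrmt (0.12 ± 0.11), Tfb1m (-0.28 ± 0.19), Tfb2m (-0.04 ± 0.16) and Ssbp1 (0.09 ± 0.12) were not called. Mgme1 lay at 12.4, 5.87 and 15.3 CPM, with replicate 2, the liver with the lowest hepatocyte markers, far below the others; without it the value moved from -0.13 to 0.19 (adjusted p = 0.47).

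**Figure D3:**
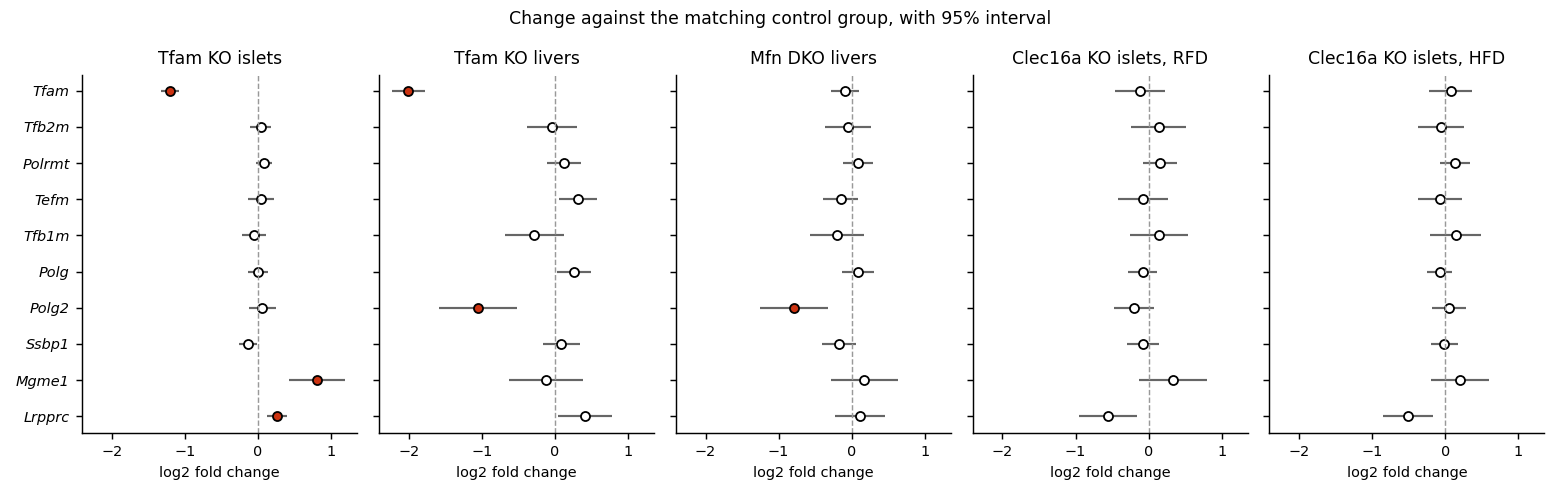
Log2 fold change (horizontal axis) of each gene against the matching controls in 5 comparisons; bars are 95% intervals, filled points passed an adjusted p of 0.05 and open points did not. Tfam, Mgme1 and Lrpprc are filled in Tfam KO islets, Tfam and Polg2 in Tfam KO livers, Polg2 in Mfn DKO livers, and none in Clec16a KO islets.

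The labels give no sex for the livers, but 7 libraries carried Xist, the RNA of the inactive X chromosome, and 6 carried Ddx3y, a gene of the Y chromosome, with no library carrying both above 1 CPM. Within control livers Polg2 lay at 14.1 to 15.8 CPM in the 3 with Ddx3y and at 9.08 to 10.6 CPM in the 3 with Xist. Tfb1m (9.19 to 9.74 against 6.53 to 7.0 CPM) and Lrpprc (180 to 190 against 142 to 163 CPM) were ordered the same way. This split came from the data, was made after seeing them and was not tested. Every targeted liver lay below every control liver in Polg2, so any split of the livers keeps that order and is no separate support. With Ddx3y, Polg2 stood at 6.35 and 7.26 CPM in Mfn DKO and 6.37 CPM in Tfam KO. With Xist, it stood at 8.99 and 5.94 CPM in Mfn DKO and 3.82 and 7.67 CPM in Tfam KO. Both kinds were present in each group. With the Xist level as a covariate, 4 of 10 members were called in Tfam KO livers, against 30.1% of all genes tested in that fit, the added ones being Lrpprc at 0.50 ± 0.13 (adjusted p = 0.013) and Tefm at 0.35 ± 0.12 (adjusted p = 0.046).

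**Figure D4:**
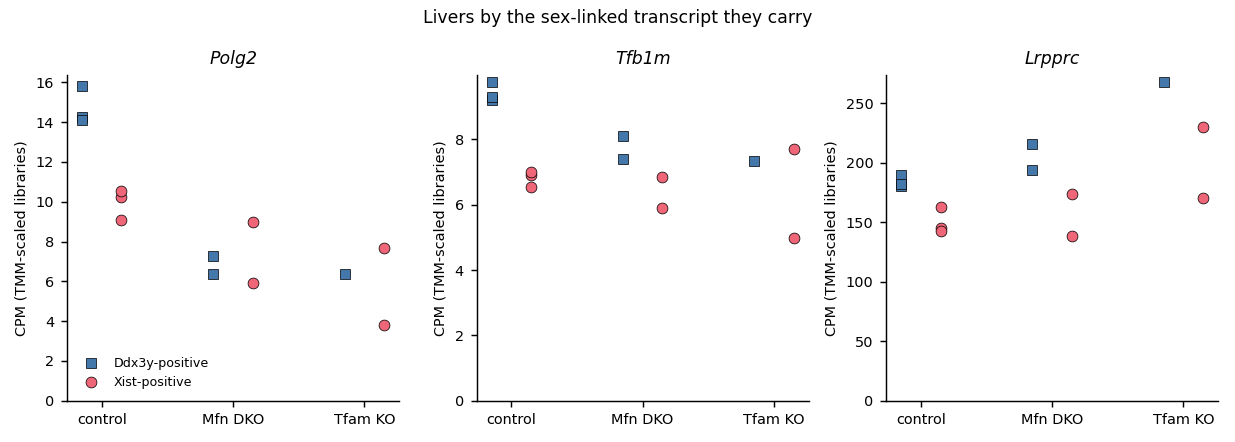
CPM on TMM-scaled library sizes (vertical axis) of Polg2, Tfb1m and Lrpprc in the 13 livers by group; squares carried Ddx3y and circles Xist, and each point is 1 library. Control livers with Ddx3y hold 14.1 to 15.8 CPM of Polg2 and those with Xist 9.08 to 10.6 CPM, and all targeted livers lie at or below 8.99 CPM.

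No member was called in islets labelled Clec16a KO. Clec16a is a regulator of mitophagy, the removal of damaged mitochondria. edgeR called 0 of 10 on RFD, against 7.52% of the 17254 genes tested, and 0 of 10 on HFD, against 9.57%. On each diet 1 member, Lrpprc, passed an unadjusted p of 0.05. Of the 17254 genes tested, 3866 passed it on RFD and 4001 on HFD. DESeq2 called that 1 member on each diet.

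Lrpprc lay lower in these islets, the opposite direction to that in Tfam KO islets. On RFD it lay at 90.3, 96.8, 76.4 and 65.3 CPM in controls and at 46.1, 49.3, 57.8 and 70.6 CPM in KO. On HFD, controls lay at 67.6 to 103 CPM with a median of 78.7 CPM, and KO islets at 50.6, 53.1, 47.2, 88.9 and 54.0 CPM. The groups overlapped on both diets, on HFD through KO replicate 4 alone. The change was -0.55 ± 0.19 on RFD (log2, SE, adjusted p = 0.084; 0.041 with DESeq2) and -0.51 ± 0.16 on HFD (adjusted p = 0.055; 0.022 with DESeq2).

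Without KO HFD replicate 4, whose endothelial markers were also at the control level, Lrpprc was called on HFD at -0.71 ± 0.14 (adjusted p = 0.0012) and on RFD at an adjusted p of 0.020 with the value unchanged at -0.55. Since that library stood apart in Lrpprc itself, the fit without it is no separate support for these calls. The lane named in the deposited files split both diets, and within lanes 7 and 8 Lrpprc differed by -0.71 and -0.52 on RFD and by -0.49 and -0.62 on HFD (log2, no test); the second of these rests on 1 KO and 2 control libraries, and the others on 2 or 3 of each. Endothelial markers moved with this result, rising in 4 of 4 genes on both diets, from 255 to 352 CPM in all controls to 300 to 584 CPM in KO islets. Fibroblast markers rose in 2 of 4 genes on RFD and 4 of 4 on HFD (median log2 change 0.68 and 0.87), and beta cell markers fell in 2 of 8 on each diet. On each diet 1 of 4 duct markers rose and 1 of 5 macrophage markers fell. Of all genes, 7.52% were called on RFD and 9.57% on HFD. The part of these shifts in the Lrpprc value was not tested.

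None of the other 9 members reached an unadjusted p under 0.05 in Clec16a KO islets. Mgme1 had the largest value, 0.33 ± 0.23 on RFD (adjusted p = 0.41) and 0.20 ± 0.19 on HFD (adjusted p = 0.60), and Polrmt stood at 0.15 ± 0.11 and 0.13 ± 0.10. Diet itself left all 10 uncalled: edgeR called 0 of 10 between HFD and RFD in controls, against 0.0406% of genes tested, and 0 of 10 in KO, against 0.0116%. At an unadjusted p under 0.05 there was 1 member in controls, Polg2 at -0.26 ± 0.12, and 0 in KO. Of the 17254 genes tested, 973 passed it in controls and 946 in KO. DESeq2 called 0 members in both. No difference in the effect of the label Clec16a KO between the diets was called for any member (0 of 10 called by edgeR and DESeq2, 0 at an unadjusted p under 0.05, 0% of genes called). This does not show that the effects were equal.

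Transcripts of mitochondrial DNA fell in Tfam KO islets in 13 of 13 genes tested (median log2 change -2.59) and in Tfam KO livers in 13 of 13 (median -4.21). Their share of all counts was 1.16 ± 0.13% in female control islets and 0.226 ± 0.03% in female KO islets (SD, n = 5 and 4). In livers it was 3.91 ± 0.47% in controls, 2.38 ± 0.33% in Mfn DKO and 0.304 ± 0.21% in Tfam KO (SD, n = 6, 4 and 3). Mfn DKO livers had 4 of 13 called lower, led by mt-Nd2 at -1.20 ± 0.31 (log2, SE, adjusted p = 0.030), where 9.87% of all genes were called. DESeq2 called 9. Leaving out single libraries moved this count between 0 and 10, with 10 in the fit without Tfam KO replicate 2. Islets labelled Clec16a KO had 0 of 10 called on either diet by edgeR and by DESeq2, and 0 at an unadjusted p under 0.05, with medians of -0.32 on RFD and -0.34 on HFD.

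The other genes that work on mitochondrial DNA and RNA were counted in lists. Of 9 replication partners, which include the helicase Twnk and the primase Primpol, edgeR called 0 in Tfam KO islets (2 at an unadjusted p under 0.05, 2 by DESeq2), with a median of 0.10 against -0.01 over all genes tested. Of the 19752 genes tested in these islets, 6528 passed that unadjusted p. Twnk stood at 0.16 ± 0.09 there (log2, SE, adjusted p = 0.23). In Tfam KO livers Top1mt, the mitochondrial topoisomerase, rose by 0.43 ± 0.11 (log2, SE, adjusted p = 0.014) and Top3a fell by 0.42 ± 0.11 (adjusted p = 0.014). These were the only calls among the 9, where 29.3% of all genes were called. Without Tfam KO replicate 2, 1 rose and 0 fell, so Top3a was not called. Leaving out single libraries moved the number that rose between 0 and 4 and the number that fell between 0 and 1. Of 26 tested genes of RNA processing and stability, 4 rose and 0 fell in Tfam KO islets, among them the RNA-binding protein Grsf1 (0.23 ± 0.05, adjusted p = 0.0019) and the oligoribonuclease Rexo2 (0.32 ± 0.09, adjusted p = 0.017). These 4 are a smaller share than the 20.9% of all genes called. In livers 4 rose and 2 fell, also below the 29.3% of all genes called, and 0 were called either way without Tfam KO replicate 2. The median change of this list was 0.00 in Tfam KO islets and 0.11 in Tfam KO livers, where that over all genes tested was 0.03.

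In Tfam KO islets 3 of 14 genes that supply nucleotides rose, a share near the 20.9% of all genes called, led by the mitochondrial pyrimidine nucleotide carrier Slc25a36 (0.66 ± 0.06, adjusted p = 4.4e-07), with a median of 0.06 over the list. In Tfam KO livers 3 rose and 4 fell, where 29.3% of all genes were called: the carrier Slc25a33 rose by 1.42 ± 0.28 (adjusted p = 0.0035), the ribonucleotide reductase subunit Rrm2b rose by 1.08 ± 0.22 (adjusted p = 0.0045), and the mitochondrial thymidine kinase Tk2 fell by 0.59 ± 0.11 (adjusted p = 0.0026). Without Tfam KO replicate 2 these counts were 2 and 2. Tk2 also fell in Mfn DKO livers, by 0.73 ± 0.10 (adjusted p = 0.0011), and in Clec16a KO islets on HFD, by 0.36 ± 0.09 (adjusted p = 0.017). Leaving out single libraries moved the number of nucleotide genes called lower in Clec16a KO islets on HFD between 0 and 1.

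Larger changes lay among genes of protein turnover at the nucleoid, the packed form of mitochondrial DNA. LONP1, the matrix protease that degrades TFAM freed from DNA, and the chaperone HSPA9 stood out. Lonp1 rose from 91.7 ± 4.19 to 325 ± 7.03 CPM in Tfam KO islets (SD, n = 8 and 6), by 1.83 ± 0.05 (log2, SE, adjusted p = 7.8e-13), and Hspa9 rose by 1.47 ± 0.07. In livers Lonp1 rose by 1.95 ± 0.22 in Tfam KO (adjusted p = 0.00023) and by 1.81 ± 0.20 in Mfn DKO (adjusted p = 0.00042). Of the 8 genes 5 rose in Tfam KO islets, 3 in Tfam KO livers and 2 in Mfn DKO livers, and none fell, where 20.9%, 29.3% and 9.87% of all genes were called; leaving out single libraries moved the islet count between 2 and 5. The list's median was 0.22 in Tfam KO islets and 0.42 in Tfam KO livers.

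Some nuclear regulators of these factors also changed. NRF1, a transcription factor known for sites in the promoters of respiratory genes, had its RNA at 24.4 to 29.3 CPM in female control and 54.6 to 65.1 CPM in female KO islets. It rose by 1.19 ± 0.07 over both sexes (log2, SE, adjusted p = 5.8e-09). Polrmt, whose window holds the NRF1 letters, stood at 0.08 ± 0.05 in the same fit (adjusted p = 0.29). Myc rose by 1.86 ± 0.18 and the coactivator Ppargc1a by 0.67 ± 0.15 (adjusted p = 1.9e-06 and 0.0034), so that 4 of 10 regulators rose and 0 fell, with a median of 0.14, where 20.9% of all genes were called.

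In Tfam KO livers Nrf1 was not called and 3 of 10 regulators rose, where 29.3% of all genes were called: the coactivator Pprc1 by 1.06 ± 0.28, Myc by 2.44 ± 0.69 and Ppargc1a by 0.63 ± 0.20 (log2, SE, adjusted p = 0.016, 0.020 and 0.032). The effect on Nrf1 differed between livers and islets by -1.01 ± 0.15 (adjusted p = 0.00032). In Clec16a KO islets on HFD, Nrf1 rose by 0.47 ± 0.13 (adjusted p = 0.023) and Ppargc1a fell by 1.26 ± 0.35 (adjusted p = 0.027). These were the only calls among the 10 regulators there, where 9.57% of all genes were called. Leaving out single libraries moved the number that rose between 0 and 2 and the number that fell between 0 and 1.

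**Figure D5:**
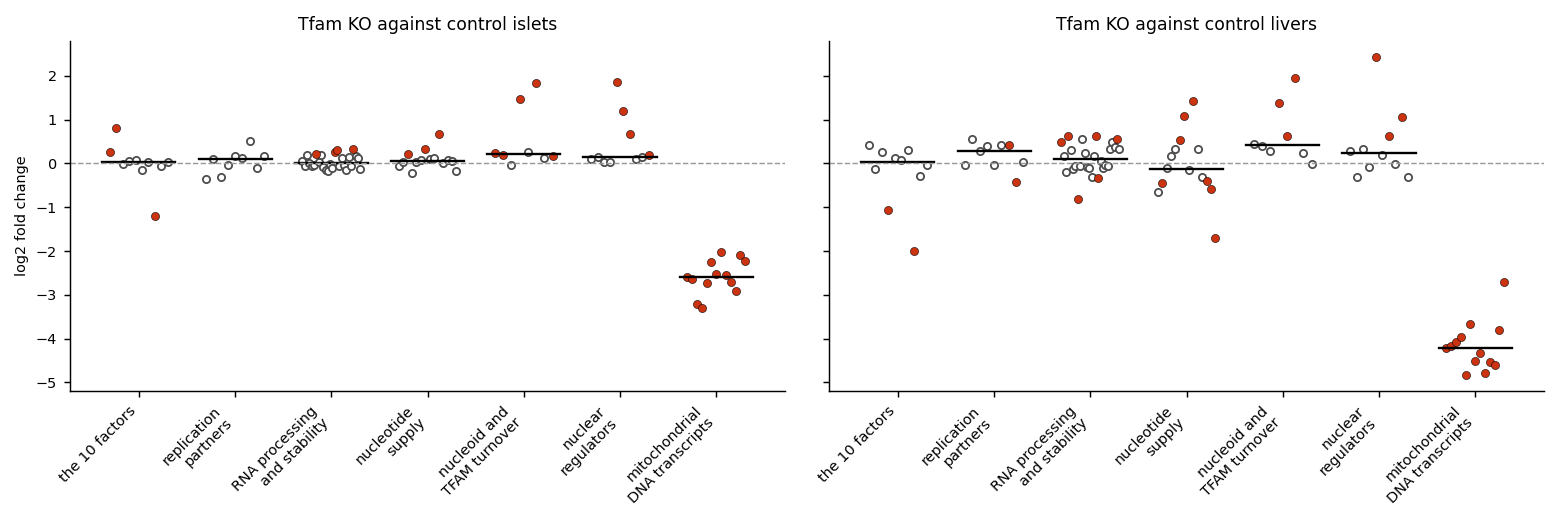
Log2 fold change (vertical axis) of the 10 factors and of the 6 lists of related genes in Tfam KO islets and Tfam KO livers; each point is 1 gene, filled where the adjusted p was 0.05 or less, and lines are medians. Of the 10 factors, Tfam, Mgme1 and Lrpprc are filled in islets and Tfam and Polg2 in livers, and all 13 mitochondrial DNA transcripts are filled and below 0 in both tissues.

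Cell type markers were called in some of these groups. In Tfam KO islets the 8 beta cell markers fell in 8 of 8 genes, with a summed level of 105143 to 140851 CPM in female KO against 187733 to 293881 CPM in female controls, and 2 of 2 delta cell markers fell. Fibroblast markers rose in 2 of 4 genes there, with 1 of 4 duct and 1 of 5 macrophage markers. In that comparison 20.9% of all genes were called, a share near the duct and macrophage counts. Of the alpha cell, endothelial and exocrine markers edgeR called 0 of 4, 0 of 4 and 0 of 11. In Tfam KO livers 4 of 6 hepatocyte markers fell and 3 of 4 proliferation markers rose; in Mfn DKO livers these counts were 0 of 6 and 4 of 4. Fibroblast markers rose in 1 of 4 genes in Tfam KO livers and in 2 of 4 in Mfn DKO livers. Of all genes, 29.3% were called in Tfam KO livers and 9.87% in Mfn DKO livers. No marker list had a gene at 0 counts throughout a group in its own tissue. The part of these shifts in the values of the 10 factors was not tested.

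By the distance between log2 changes over 6 comparisons, among 14504 genes tested in all 3 experiments, the genes most like Tfam were Dnah8 (0.68), Zfp872 (0.79) and Tssk1 (0.82). Those most like Mgme1 were Gnpnat1 (0.27), Stab2 (0.29) and 2310040G24Rik (0.33), which stood between 0.64 and 0.92 in Tfam KO islets of either sex and between -0.08 and 0.11 in Tfam KO livers. These are descriptions of the values used to find them.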

How the data were processed

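RNA sequencing counts and TPM per gene were deposited by the authors for each library. Per the submitters' processing notes, the build was GRCm38 and the tools named were STAR 2.6.1b, RSEM 1.3.1, featureCounts, FastQC, MultiQC and DESeq2; their order, the annotation and the strand setting are not given in the sources used here. The deposited TPM matched the union exon length of GENCODE M21 within 1% for 98.95% of 38051 genes. CPM were computed here from the deposited counts, on TMM-scaled library sizes within each experiment. Identifiers were matched to GENCODE M21 for 55227 of 55487 genes, and 114 symbols stood at more than 1 identifier.

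Counts were tested with edgeR 4.0.16 (R 4.3.3, filterByExpr, TMM, quasi-likelihood F-test, Benjamini-Hochberg over all genes tested, threshold 0.05), with 1 fit per experiment on all its groups and 1 joint fit of Tfam islets and livers for the difference of effects. The standard error is the log2 fold change divided by the square root of F, and intervals are 95%. On simulated counts the fits recovered 82% of 2-fold changes in Tfam islets (19752 genes), 80% in Clec16a islets on HFD (17254 genes) and 42% in Tfam KO livers (17024 genes). The simulation changed 50 genes at each fold, a smaller share than was called in the data. These rates therefore do not measure what the fits of the data could recover. DESeq2 1.42.0 was an alternative, with other filters, DESeq2 size factors, covariates, the replicate number as a block and leaving out each library. The libraries left out include those of groups outside a comparison, which act on it only through the shared spread, filter and scaling. All members are named; of each list, at most 3 called genes per comparison with the smallest adjusted p were eligible to be named, and genes outside this rule were named after their values were seen. Members and lists were chosen with earlier results of these data known. Samples were grouped by their labels; where nothing says that replicates came from separate animals, p-values measure only the spread between these samples. No pair of libraries held identical values.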

Additional observations from a re-analysis of the deposited data

Results flagged for a closer look

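Single libraries stood apart from the rest of their group in 5 of 80 sets of values of the 10 factors, by the gap to the nearest library over the range of the group; chance gives about 1 in 20. Lrpprc in Clec16a KO HFD replicate 4 lay at 88.9 CPM against 47.2 to 54.0 CPM in the other 4, and that library also had Lonp1 at 83.5 CPM, where the others lay at 105 to 131 CPM. Polg2 in Clec16a KO HFD replicate 5 lay at 4.25 CPM, below 4.97 to 5.16 CPM in the others. Mgme1 in Clec16a control HFD replicate 3 lay at 4.84 CPM, below 6.54 to 7.29 CPM. Ssbp1 in Tfam control female replicate 4 lay at 41.7 CPM, above 33.1 to 35.3 CPM. Tfb2m in Tfam KO female replicate 1 lay at 11.4 CPM, above 10.7 to 10.8 CPM.

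The effect of the label Tfam KO differed between livers and islets for 2 of the 10 factors, Tfam (-0.81, livers minus islets, log2) and Polg2 (-1.10). Tissue, experiment and the way deletion was made cannot be told apart in this difference. Among the related genes it was lower in livers for Tymp (-1.58), a thymidine phosphorylase, Nrf1 (-1.01), Hsd17b10 (-0.87), a subunit of mitochondrial RNase P, Tk2 (-0.63), Yy1 (-0.52) and Dguok (-0.50), the mitochondrial deoxyguanosine kinase. It was higher in livers for Pprc1 (0.93), Fastkd2 (0.62) and Ptcd3 (0.40). Without liver Tfam KO replicate 2, 0 genes of RNA processing and stability were called in this difference, so Hsd17b10, Fastkd2 and Ptcd3 were not. Nuclear regulators then had 0 called higher and 1 lower, and nucleotide genes 0 and 3. Mitochondrial DNA transcripts fell further in livers, mt-Nd4 by -2.27, mt-Cytb by -2.09 and mt-Rnr1 by -1.80 more than in islets.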

How the results depend on the processing

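No call of a factor changed sign under any alternative. Of 281 refits of the called values 263 kept the call and 18 lost it, and of 2759 refits of the uncalled values 24 gained one. The pooled count includes Tfam, the targeted gene, which lost none. The losses were Mgme1 in female islets (7 of 21 refits), Lrpprc in female islets (2 of 21), Polg2 in Mfn DKO livers (8 of 20) and Polg2 in Tfam KO livers (1 of 20). The number of factors called in males was 2 with no filter on low counts (Mgme1 at 0.82, adjusted p = 0.046). In Clec16a KO islets on HFD it was 1 with at least 10 counts in every library and 1 with DESeq2, and on RFD 1 with DESeq2, each time Lrpprc. In Mfn DKO livers it was 0 with no filter. Between Tfam KO and Mfn DKO livers it was 2 with DESeq2, through Tefm (0.46, adjusted p = 0.025). In Tfam KO livers it was 4 with the Xist level as a covariate. With the replicate number as a block, 0 factors were called in Mfn DKO livers (Polg2 at -0.77) and 1 in Tfam KO livers, and the block changed no other count. Same-numbered libraries had a median correlation of deviations of 0.065 in Tfam islets, -0.016 in Clec16a islets and 0.087 in livers. In livers the correlations ran from -0.34 to 0.35, with 5 of 10 pairs over 0.1. These values do not settle whether the numbers pair libraries.

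Leaving out single libraries gave 3 to 3 called factors over both sexes of Tfam islets, 1 to 3 in females, 1 to 2 in males, 0 to 1 in Clec16a KO islets on either diet, 0 to 1 in Mfn DKO livers, 2 to 4 in Tfam KO livers, 1 to 3 between the targeted livers and 2 to 5 for the difference between tissues. In males Mgme1 was called at 1.28 (adjusted p = 0.0092) without male control replicate 1. Lrpprc was called on HFD in 4 of 19 fits. The 3 Tfam KO livers and 2 male KO islets limit what could be called. In livers 4% of the simulated 1.5-fold changes were recovered, in a simulation that changed only 50 genes at each fold. No liver fit within libraries carrying Xist or Ddx3y was made.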

Other observations

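The initiation factor Tfb2m stood at different levels in the control islets of the 2 islet experiments. It lay at 5.48 to 9.59 TPM in the 8 Tfam control islets and at 3.12 TPM on average in the 4 Clec16a control islets on RFD, a gap that was not tested. The order of Tfb2m among the 10 factors moved with it, from place 6 to place 9, while Lrpprc and Tfam led in both by deposited TPM; by the longest coding transcript Tfam took place 4 in the Clec16a controls. What else set the 2 experiments apart cannot be told from the labels.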
